A study of Mus musculus with 10 samples.

Results

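The angiomotins AMOT, AMOTL1 and AMOTL2 and the phosphatase PTPN14 were followed across 10 mouse tumors. They are proteins of cell junctions that bind YAP1, and they were picked by symbol. All 4 were among the 16895 genes in the files and among the 13707 genes that passed a filter on low values. YAP1 is the coactivator that the Hippo pathway restrains, and the tumors were started with 1 of 2 altered forms of it. NLS-2SA-YAP1 (n = 3) is the constitutively active YAP1 of the series title. YAP1-MAML2-v2 (n = 7) is a fusion of YAP1 with MAML2, which works as a coactivator for Notch. Every mouse carried Nestin/tv-a, so the receptor for the avian RCAS virus was made under Nestin control, and every mouse was Cdkn2a null. Chicken DF1 cells releasing the virus were injected under the arachnoid of pups at p0 to p3, and RNA came from whole frozen tumors. The sources used here give no age at which the tumors were taken.

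NLS-2SA-YAP1 replicate 1 was labelled extra axial, and NLS-2SA-YAP1 replicates 2 and 3 were labelled extra cranial. Among YAP1-MAML2-v2 tumors, replicates 2 and 6 were extra axial, replicate 7 was intra ventricular, and replicates 1, 3, 4 and 5 were extra cranial. The deposited names of YAP1-MAML2-v2 replicates 6 and 7 carry the same number, and the labels do not say whether both came from 1 mouse. P-values therefore measure only the spread between these samples. No uninfected tissue was analysed here. Library totals lay between 28001143 and 44544314. The values were treated as estimated counts, so the sequencing depth behind them is unknown and no counting intervals are given. Of 12 meningeal fibroblast markers, 11 were above 1 in most libraries, with SLC22A6 at 0 or 1 in 9 of 10 libraries and PTGDS at 0 or 1 in 1.

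Angiomotins are scaffold proteins of tight junctions and actin. They bind the WW domains of YAP1 through PPxY motifs, which keeps YAP1 out of the nucleus, and the LATS kinases act on them. AMOT exists as a long form, which holds the YAP1-binding motifs, and a short form, which lacks them. Counts per gene do not separate the forms. PTPN14 is a non-receptor tyrosine phosphatase with a FERM domain, and it also binds YAP1 through PPxY motifs. AMOTL2 and PTPN14 are themselves known target genes of YAP1 and its DNA-binding TEAD partners, so these inhibitors can form a feedback loop. In the mm10 assembly with the GENCODE M21 annotation, Amot lies on the minus strand at chrX:145446425-145505181 and Amotl1 on the minus strand at chr9:14541966-14645056. Amotl2 lies on the plus strand at chr9:102716672-102733418 and Ptpn14 on the plus strand at chr1:189728268-189876695. The exons of Ptpn14 share 177 bases with the antisense gene Gm26574. No source used here gives the strand setting of the counting, so PTPN14 values could include reads of that gene.

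The 2 promoters with a TEAD core motif are shown because AMOTL2 and PTPN14 are the members known as YAP1-TEAD targets. Each window holds 250 bases before and 50 bases after a RefSeq start site in GRCm38.p6, the assembly also called mm10. Capitals mark CATTCC, searched on both strands. In Amotl2 (chr9:102717554-102717853, plus strand) it begins at position -65 from the start site, and in Ptpn14 (chr1:189728018-189728317, plus strand) at position -146.
Amotl2 promoter: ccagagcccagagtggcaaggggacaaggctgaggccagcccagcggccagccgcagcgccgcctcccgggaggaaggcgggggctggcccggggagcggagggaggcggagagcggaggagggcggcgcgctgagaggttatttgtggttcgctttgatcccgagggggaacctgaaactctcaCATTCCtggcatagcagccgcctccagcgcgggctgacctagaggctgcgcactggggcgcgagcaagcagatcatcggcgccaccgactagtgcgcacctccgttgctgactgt
Ptpn14 promoter: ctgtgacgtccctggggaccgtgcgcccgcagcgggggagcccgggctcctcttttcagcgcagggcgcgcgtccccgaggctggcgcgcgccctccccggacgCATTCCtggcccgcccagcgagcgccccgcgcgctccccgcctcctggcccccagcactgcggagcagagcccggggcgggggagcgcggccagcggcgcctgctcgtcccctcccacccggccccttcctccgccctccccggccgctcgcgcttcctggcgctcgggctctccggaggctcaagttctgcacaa
The windows of Amot (chrX:145487590-145487889, minus strand) and Amotl1 (chr9:14614951-14615250, minus strand) do not hold these letters. The motif occurs in 14.7% of 32851 RefSeq windows of this length. The AP-1 motif TGANTCA, also searched on both strands, is in 0 of the 4 windows and in 7.81% of all windows. A match is a description of letters and not a binding site. Amot has 46% G or C bases in its window, whereas Ptpn14 has 78.3%, Amotl2 68.7% and Amotl1 61.3%.

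Between tumor labels, AMOT and PTPN14 stood higher in NLS-2SA-YAP1 tumors, while AMOTL1 and AMOTL2 had no steady direction. Differences of some of these genes between the 2 labels were known when the genes were chosen. Their construct differences are therefore given as levels and fold changes with no test. In bulk tumor RNA, fewer cells of a type and less RNA per cell cannot be told apart.

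AMOT, the first known angiomotin, had 34.5, 42.4 and 79.1 CPM (values scaled to a common library total, with TMM factors) in replicates 1, 2 and 3 of NLS-2SA-YAP1. In YAP1-MAML2-v2 replicates 1 to 7 it had 11.1, 13.4, 21.9, 8.14, 9.73, 12.8 and 53.0 CPM. The intra ventricular tumor, replicate 7, stood apart from the other 6 of its label and lay inside the range of NLS-2SA-YAP1. AMOT averaged 52.0 ± 23.8 CPM in NLS-2SA-YAP1 and 18.6 ± 15.8 CPM in YAP1-MAML2-v2 (SD, n = 3 and 7). Its log2 fold change, NLS-2SA-YAP1 minus YAP1-MAML2-v2, was 1.99 (SE 0.40) in edgeR's quasi-likelihood fit with construct and region as terms. In that fit the intra ventricular library has a region of its own, so it does not enter this value. Without the region term it does, and the log2 fold change of AMOT was 1.48. Outside the ventricle the groups did not overlap, with 34.5 CPM as the lowest NLS-2SA-YAP1 value and 21.9 CPM as the highest YAP1-MAML2-v2 value.

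Marker sums of glia, macrophages and endothelium were also highest in replicate 7. Its 8 astrocyte and oligodendrocyte markers summed to 1461 CPM, against 20.6 to 271 CPM in the other 6 YAP1-MAML2-v2 tumors, and GFAP alone had 1204 CPM. Its macrophage and microglia markers (9 genes) summed to 2240 CPM, against 327 to 984 CPM, and its endothelial markers (10 genes) to 1072 CPM, against 172 to 692 CPM. Its 7 bone and cartilage markers summed to 559 CPM, against 21.8 to 393 CPM. Its sums of fibroblast, pericyte, skeletal muscle and keratinocyte markers lay inside the range of the other 6. The sum of the 8 neuron markers ran the other way. It was 520 CPM in replicate 7, against 622 to 1141 CPM in the other 6. All 8 genes were above 1 in replicate 7, as in replicate 3. RBFOX3, SYT1, SNAP25, STMN2 and GAD1 were at 0 or 1 in replicates 2 and 5. Replicate 7 also had the largest library total, 44544314, and the fewest genes at 0, 1837. The amount of neuron tissue in it was not tested. The part of these tissues in its AMOT level was not tested. Across labels, the 9 ependyma and choroid plexus markers summed to 135 to 438 CPM in NLS-2SA-YAP1 tumors, but between 26.3 and 129 CPM in YAP1-MAML2-v2 tumors outside the ventricle. Replicate 7 had 228 CPM, inside the range of NLS-2SA-YAP1, with 8 of the 9 genes above 1 and KCNJ13 at 0 or 1. The part of ependyma or choroid plexus in its AMOT level was not tested. AQP1 and CLIC6 made up most of the NLS-2SA-YAP1 sums. TTR, KCNJ13 and OTX2, which define choroid plexus, were at 0 or 1 in all 3 NLS-2SA-YAP1 tumors. FOXJ1, of the same list, was above 1 in all 3, but at 0 or 1 in 4 of 7 YAP1-MAML2-v2 tumors. TEKT1 was at 0 or 1 in 1 NLS-2SA-YAP1 and 4 YAP1-MAML2-v2 tumors, FOLR1 in 2 and 4, and DNAH5 in 2 and 3. The part of ependyma, or of the cells with AQP1 and CLIC6, in the AMOT difference was not tested.

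PTPN14 was the steadiest member within NLS-2SA-YAP1, with 165, 199 and 203 CPM in replicates 1, 2 and 3. In YAP1-MAML2-v2 replicates 1 to 7 it had 57.4, 109, 107, 134, 51.0, 59.5 and 52.8 CPM. All 3 NLS-2SA-YAP1 tumors were above all 7 YAP1-MAML2-v2 tumors, in which replicates 2, 3 and 4 lay above 100 CPM and the other 4 below 60. The means were 189 ± 20.7 CPM in NLS-2SA-YAP1 and 81.5 ± 34.1 CPM in YAP1-MAML2-v2 (SD, n = 3 and 7), and the log2 fold change was 1.13 (SE 0.37). Among the 4 members, PTPN14 was the only one whose groups did not overlap over all 10 libraries. Of all tested genes, 3.71% were higher without overlap in NLS-2SA-YAP1 and 3.03% were lower. When the intra ventricular tumor is left out, AMOT joins PTPN14, and the shares of all genes are 4.73% and 4.28%. Nothing is read from these counts, since the labels' difference was known when the genes were chosen.

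Skeletal muscle markers were highest in 2 NLS-2SA-YAP1 tumors, and fibroblast markers were on the whole higher in that label. The 10 skeletal muscle markers had sums of 2.15, 101 and 302 CPM in replicates 1, 2 and 3 of NLS-2SA-YAP1, and between 1.06 and 58.4 CPM in the YAP1-MAML2-v2 tumors. NLS-2SA-YAP1 replicate 1, with MYH1, MYH4 and CKM at 0 or 1, had 165 CPM of PTPN14, above every YAP1-MAML2-v2 tumor. Its AMOT level of 34.5 CPM was above all YAP1-MAML2-v2 tumors outside the ventricle. The 12 meningeal fibroblast markers summed to 13468 to 26673 CPM in NLS-2SA-YAP1, against 5213 to 21727 CPM in YAP1-MAML2-v2, and the part of muscle or fibroblasts in either gene was not tested. The 7 keratinocyte markers summed to 79.8, 7384 and 1779 CPM in replicates 1, 2 and 3 of NLS-2SA-YAP1, against 103 to 2108 CPM in YAP1-MAML2-v2. DSP, a desmosomal protein also found in meningeal cells, reached 7315 CPM of the sum in NLS-2SA-YAP1 replicate 2. KRT5, a basal keratin, was at 0 or 1 in 9 of 10 libraries, KRT1 in 5, DSP in 2, TP63 and PKP1 in 1 each and KRT10 in 0. KRT14 was at 0 or 1 in 3 libraries, all of them YAP1-MAML2-v2. The part of keratinocytes in the AMOT or PTPN14 level was not tested.

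**Figure D1:**
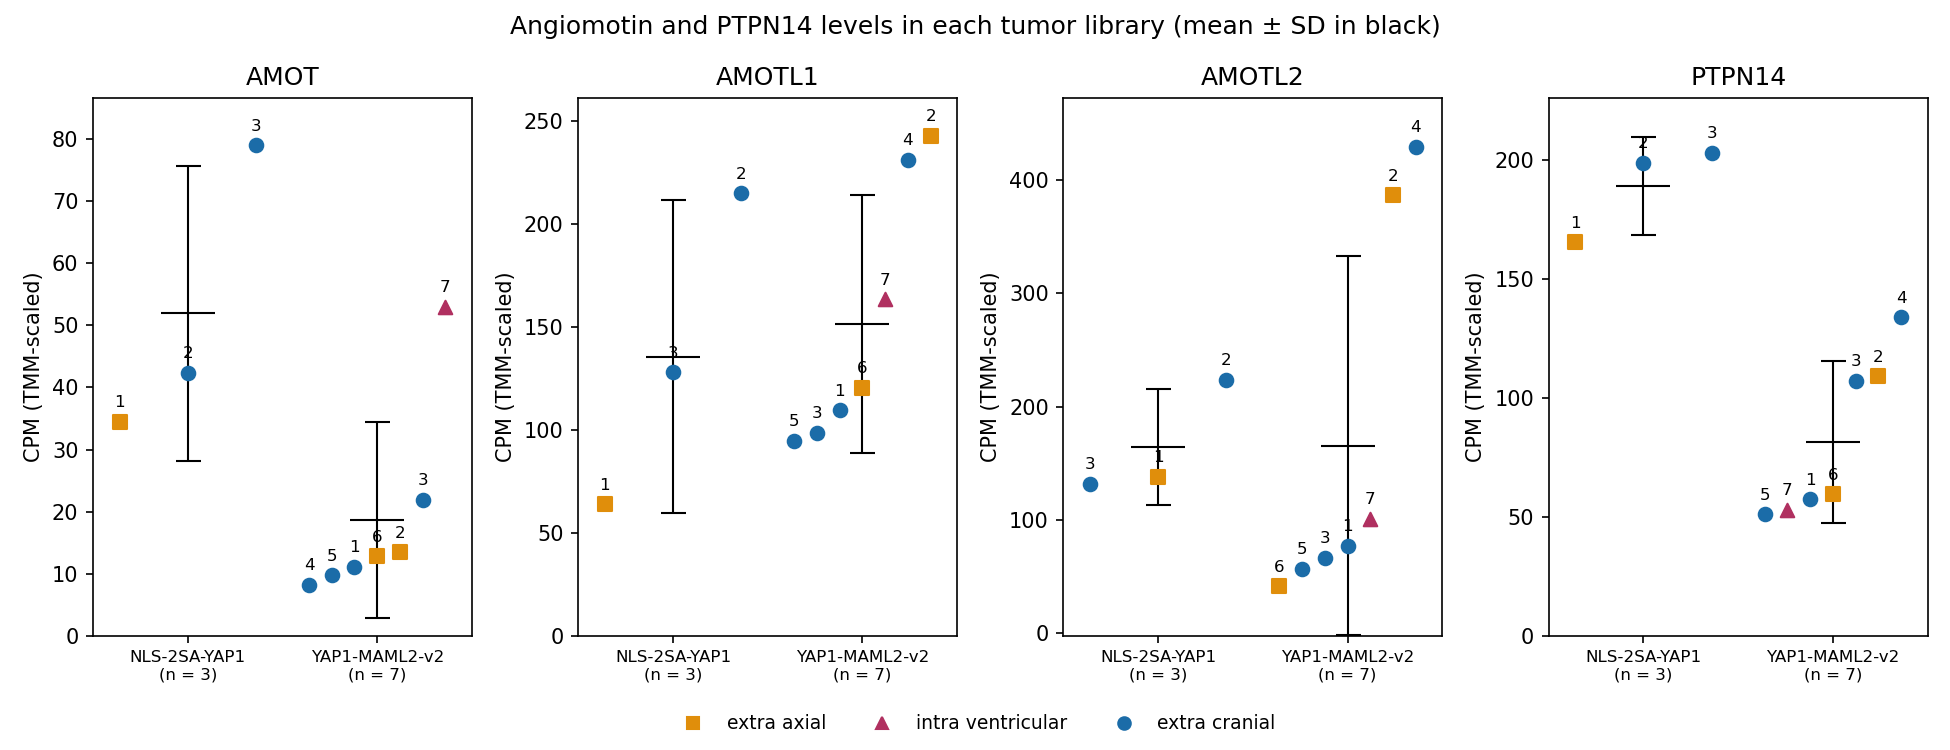
Level of each gene in CPM (y axis, linear) in NLS-2SA-YAP1 tumors (left, n = 3) and YAP1-MAML2-v2 tumors (right, n = 7), with 1 point per library, sorted by level and labelled with its replicate number, and the mean ± SD in black. PTPN14 is the only gene whose groups do not overlap, AMOT of YAP1-MAML2-v2 replicate 7 lies at 53.0 CPM, and AMOTL2 spans 41.5 to 429 CPM within YAP1-MAML2-v2.

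AMOTL1 and AMOTL2 varied more between tumors of 1 label than between the means of the 2 labels. AMOTL1 reached 63.6, 215 and 128 CPM in replicates 1, 2 and 3 of NLS-2SA-YAP1, and 109, 243, 98.5, 231, 94.6, 120 and 163 CPM in YAP1-MAML2-v2 replicates 1 to 7. NLS-2SA-YAP1 replicate 1 was the lowest of all, YAP1-MAML2-v2 replicates 2 and 4 were the highest, and the groups overlapped. The mean was 135 ± 75.8 CPM in NLS-2SA-YAP1 and 151 ± 62.7 CPM in YAP1-MAML2-v2 (SD, n = 3 and 7). Its log2 fold change was -0.16 (SE 0.50), and it ran from -0.63 without NLS-2SA-YAP1 replicate 2 to 0.36 without NLS-2SA-YAP1 replicate 1. The sign of this difference was thus set by single libraries.

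AMOTL2 reached 138, 224 and 132 CPM in replicates 1, 2 and 3 of NLS-2SA-YAP1, and 77.3, 387, 66.7, 429, 56.8, 41.5 and 101 CPM in YAP1-MAML2-v2 replicates 1 to 7. YAP1-MAML2-v2 replicates 2 and 4 were above every NLS-2SA-YAP1 tumor, and the other 5 were below every one. The highest YAP1-MAML2-v2 tumor had 10.3 times the lowest, whereas within NLS-2SA-YAP1 the ratio was 1.69. The group means were nearly equal, at 164 ± 51.3 CPM in NLS-2SA-YAP1 and 166 ± 167 CPM in YAP1-MAML2-v2 (SD, n = 3 and 7), and the edgeR log2 fold change was -0.077 (SE 0.82). On the log scale the mean difference was 0.53, so the sign depends on the scale. It turned in edgeR as well, to 0.62 without YAP1-MAML2-v2 replicate 2 and to 0.79 without YAP1-MAML2-v2 replicate 4.

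The 2 high AMOTL2 tumors carried different regions, replicate 2 being extra axial and replicate 4 extra cranial. Their 7 pericyte and smooth muscle markers summed to 1845 CPM in replicate 2 and 1980 CPM in replicate 4, against 634 to 1034 CPM in the other 5 YAP1-MAML2-v2 tumors. All 7 markers were above 1 in every library. RGS5, a pericyte gene, had 593 and 976 CPM in replicates 2 and 4, but also 607 CPM in replicate 7, whose AMOTL2 level was 101 CPM. NLS-2SA-YAP1 tumors had sums of 1381 to 1844 CPM and AMOTL2 levels of 132 to 224 CPM. The part of these cells in AMOTL2 was not tested. Both replicates also held the most genes at a value of 1, with 1111 each, against 740 to 961 in the other 8 libraries.

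Levels of different genes were compared only per length, as TPM, length-scaled values with the same sum in every library, over the union of exons of each gene. AMOTL2 had a median of 73.2 TPM over the 10 libraries, AMOTL1 50.3 TPM, PTPN14 35.2 TPM and AMOT 9.46 TPM. The ranges of AMOTL2 (29.1 to 268 TPM), AMOTL1 (27.4 to 105 TPM) and PTPN14 (14.4 to 66.0 TPM) overlap across libraries. AMOT ranged from 3.38 to 35.5 TPM and overlaps them too. Within each of the 10 libraries AMOT was the lowest of the 3 angiomotins. PTPN14 was below AMOTL2 in all 10 libraries (8 of 10 with the coding length) and below AMOTL1 in 8 of 10, among them all 7 YAP1-MAML2-v2 tumors, and above AMOT in 9 of 10.

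Of the summed angiomotin TPM, AMOT made up 14.2 ± 6.98% in NLS-2SA-YAP1 and 7.06 ± 5.35% in YAP1-MAML2-v2 (SD, n = 3 and 7). The share of AMOTL1 was 27.8 ± 7.58% in NLS-2SA-YAP1 and 41.3 ± 11.9% in YAP1-MAML2-v2. For AMOTL2 it was 58.0 ± 9.55% in NLS-2SA-YAP1 and 51.6 ± 15.1% in YAP1-MAML2-v2. AMOTL2 led in 7 of 10 libraries, among them all 3 NLS-2SA-YAP1 tumors, and AMOTL1 in 3, which were YAP1-MAML2-v2 replicates 5, 6 and 7. This order rests on the length used, since with the coding length each of the 2 genes led in 5 libraries, and with the longest transcript AMOTL2 led in 9 and AMOTL1 in 1. The sum of the 3 was 140, 276 and 163 TPM in NLS-2SA-YAP1 replicates 1, 2 and 3, and 105, 381, 106, 322, 74.0, 88.4 and 161 TPM in YAP1-MAML2-v2 replicates 1 to 7. The groups overlapped fully, with the 2 highest sums in YAP1-MAML2-v2 replicates 2 and 4.

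**Figure D2:**
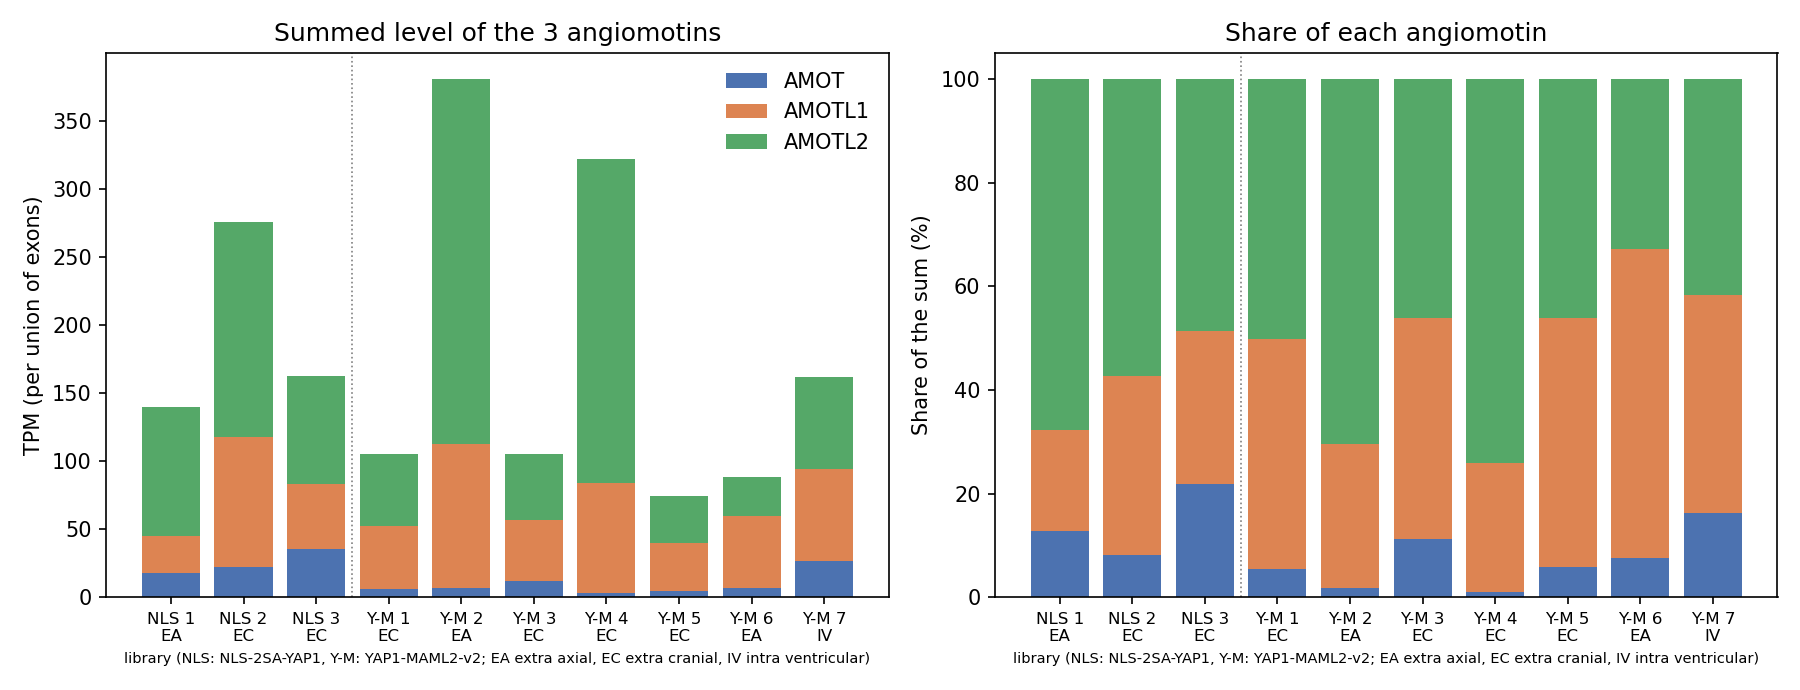
Summed TPM of the 3 angiomotins (left panel, stacked bars) and the share of each in the sum in percent (right panel), with 1 bar per library, NLS-2SA-YAP1 left of the dotted line and YAP1-MAML2-v2 right of it. The sums of YAP1-MAML2-v2 replicates 2 and 4 reach 381 and 322 TPM, mostly from AMOTL2, and the AMOT share stays between 1.05% and 21.8%.

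Set against YAP1 itself, the angiomotin sum was lower in NLS-2SA-YAP1 tumors, while AMOT, AMOTL2 and PTPN14 taken singly overlapped. YAP1 reached 421, 592 and 525 CPM in replicates 1, 2 and 3 of NLS-2SA-YAP1, against 122 to 174 CPM in YAP1-MAML2-v2, and endogenous transcript is not separated from that of the construct in these values. The angiomotin sum per YAP1, both in TPM, was 0.712, 0.968 and 0.759 in NLS-2SA-YAP1 replicates 1, 2 and 3. In YAP1-MAML2-v2 replicates 1 to 7 it was 1.63, 5.03, 1.44, 4.92, 1.22, 1.31 and 2.92. The groups did not overlap, and YAP1-MAML2-v2 replicates 2 and 4 were far above the other 5. With PTPN14 added, the ratio was 0.983 to 1.20 in NLS-2SA-YAP1 and 1.45 to 5.49 in YAP1-MAML2-v2. The size of these ratios rests on the length used, and with the coding length the last one was 0.469 to 0.574 in NLS-2SA-YAP1 and 0.708 to 2.51 in YAP1-MAML2-v2, again without overlap. AMOTL1 alone was at 0.139 to 0.334 per YAP1 in NLS-2SA-YAP1, against 0.584 to 1.39 in YAP1-MAML2-v2. AMOTL2 per YAP1 was 0.370 to 0.556 in NLS-2SA-YAP1 and 0.432 to 3.64 in YAP1-MAML2-v2. AMOT was at 0.0789 to 0.166 in NLS-2SA-YAP1 and 0.0517 to 0.477 in YAP1-MAML2-v2, and PTPN14 at 0.232 to 0.272 in NLS-2SA-YAP1 and 0.236 to 0.532 in YAP1-MAML2-v2. Of the 4 genes taken singly, AMOTL1 was the one that had groups that did not overlap. YAP1, the divisor, itself did not overlap between labels. The share of all genes without overlap per YAP1 was not counted. Nothing particular to AMOTL1 or the angiomotins is therefore read from these gaps. The mean CPM of YAP1 was 3.47 times as high in NLS-2SA-YAP1 as in YAP1-MAML2-v2, while the angiomotin sums overlapped. YAP1 values were divided by the same annotated length in both labels. The part of YAP1 that each construct carries was not taken into account. The YAP1 difference and the ratios are therefore not read as numbers of YAP1 molecules or of binders per molecule.

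Between regions, 0 of the 4 members passed edgeR's quasi-likelihood test at an adjusted p of 0.05. Across all genes 0% passed (0 of 13707), 413 genes were under an unadjusted p of 0.05, and none of the 4 members was among them. Neither DESeq2 (31 genes called, 0.0219% of all higher and 0.204% lower) nor limma-voom with sample quality weights (0 called) called a member. The groups were the 3 extra axial and the 6 extra cranial libraries, with construct as a term. The intra ventricular region is a single library and is given only as levels.

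AMOT averaged 20.2 ± 12.3 CPM in extra axial tumors and 28.7 ± 27.8 CPM in extra cranial tumors (SD, n = 3 and 6). Its log2 fold change, extra axial minus extra cranial, was -0.23 (SE 0.42, 95% interval -1.16 to 0.70, edgeR adjusted p = 1). PTPN14 averaged 111 ± 53.0 CPM in extra axial tumors and 125 ± 66.4 CPM in extra cranial tumors, with a log2 fold change of -0.13 (SE 0.38, interval -0.98 to 0.73, edgeR adjusted p = 1). For AMOTL1 the means were 142 ± 91.5 CPM in extra axial and 146 ± 60.9 CPM in extra cranial tumors, and the log2 fold change was -0.078 (SE 0.50, interval -1.19 to 1.04, edgeR adjusted p = 1). AMOTL2 averaged 189 ± 178 CPM in extra axial and 164 ± 144 CPM in extra cranial tumors, with 0.19 on the log2 scale (SE 0.81, interval -1.64 to 2.02, edgeR adjusted p = 1). The 4 intervals all span 0 and are widest for AMOTL2, so a regional difference was not detectable in these tumors. None of the 4 had groups that did not overlap between the regions, where 0.387% of all genes were higher and 0.503% lower without overlap.

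**Figure D3:**
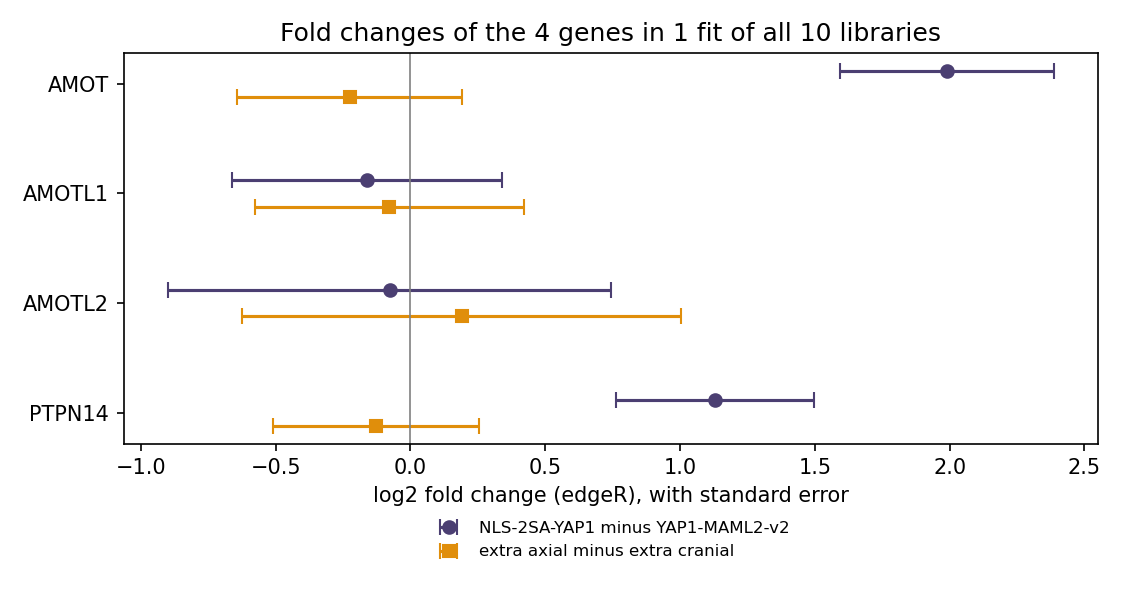
The log2 fold changes (x axis) of the 4 genes (y axis) with their standard errors, from 1 edgeR fit of all 10 libraries, for NLS-2SA-YAP1 minus YAP1-MAML2-v2 (circles) and extra axial minus extra cranial (squares). AMOT (1.99) and PTPN14 (1.13) lie to the right between labels, and every regional value lies within 0.3 of 0.

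By label and region together, AMOT had its highest mean in extra cranial NLS-2SA-YAP1 tumors, at 60.7 CPM (42.4 and 79.1). The extra axial NLS-2SA-YAP1 tumor had 34.5 CPM, and the intra ventricular YAP1-MAML2-v2 tumor had 53.0 CPM. YAP1-MAML2-v2 tumors had 13.1 CPM in the extra axial region (n = 2) and 12.7 CPM in the extra cranial region (n = 4), values that do not differ beyond their spread. PTPN14 had 165 CPM in the extra axial and 201 CPM in the extra cranial NLS-2SA-YAP1 tumors, then 84.3 CPM in extra axial, 52.8 CPM in intra ventricular and 87.3 CPM in extra cranial YAP1-MAML2-v2 tumors. AMOTL1 and AMOTL2 had opposite orders of their means by region in the 2 labels, which rest on 1 extra axial NLS-2SA-YAP1 tumor and on overlapping YAP1-MAML2-v2 values. AMOTL1 had 63.6 CPM in extra axial and 171 CPM in extra cranial NLS-2SA-YAP1 tumors, but 182 CPM in extra axial and 133 CPM in extra cranial YAP1-MAML2-v2 tumors. AMOTL2 had 138 CPM in extra axial and 178 CPM in extra cranial NLS-2SA-YAP1 tumors, but 214 CPM in extra axial and 157 CPM in extra cranial YAP1-MAML2-v2 tumors.

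The interaction tests whether the regional difference itself differs between the labels, over 9 libraries without the intra ventricular tumor. For AMOTL1 it was -1.86 on the log2 scale (SE 0.91, 95% interval -3.93 to 0.20), with an edgeR unadjusted p of 0.0715 and an adjusted p of 0.733 over 13487 genes. AMOT had -0.85 (SE 0.88), AMOTL2 -0.80 (SE 1.81) and PTPN14 -0.22 (SE 0.83). edgeR called 0 of the 4 and had 0 under an unadjusted p of 0.05, DESeq2 also called 0 and had 1 under that p, AMOTL1. Over all genes edgeR called 1 of 13487 (0.00741%), GABRB2, named after its values were seen, with 963 genes (7.14%) under an unadjusted p of 0.05, and DESeq2 called 204 (1.51%), with 10.3% under an unadjusted p of 0.05. A single extra axial NLS-2SA-YAP1 tumor carries this term.

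Whether the members varied together was asked within the 7 YAP1-MAML2-v2 tumors, on log2 CPM, over 18 relations among the members and with YAP1, CTGF and CYR61. CTGF and CYR61 are secreted matricellular proteins and classic YAP1-TEAD targets. None of the 18 passed after Benjamini-Hochberg adjustment of exact two-sided permutation tests. AMOTL1 and AMOTL2 had Pearson's r = 0.919 (exact permutation p = 0.0171, adjusted 0.193) and Spearman's rho = 0.75 (exact p = 0.0663, adjusted 0.514). Without replicates 2 and 4 the r was 0.511, so the relation rests on those 2 tumors. PTPN14 and YAP1 had r = 0.787 (exact permutation p = 0.0214, adjusted 0.193) and rho = 0.643 (exact p = 0.139, adjusted 0.514), with r = 0.404 without replicates 2 and 4. AMOTL2 and CYR61 had r = 0.614 (exact permutation p = 0.0325, adjusted 0.195) and rho = 0.75 (exact p = 0.0663, adjusted 0.514), with r = 0.857 without replicates 2 and 4. Against CTGF, r was 0.45 for AMOTL2, 0.18 for AMOTL1, 0.78 for PTPN14 and -0.35 for AMOT. The r of AMOTL2 and CTGF was 0.00089 without replicates 2 and 4. AMOT and YAP1 had r = -0.769 (exact permutation p = 0.0611, adjusted 0.223), and -0.397 without replicate 7.

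CYR61 was at 2.36 CPM in replicate 6 and 33.5 CPM in replicate 5, the 2 tumors with the lowest AMOTL2, and at 284 to 680 CPM in the other 5. AMOT followed none of the other 3 members, with r = -0.025 against AMOTL1, -0.20 against AMOTL2 and -0.27 against PTPN14 (exact permutation p = 0.944, 0.767 and 0.637). All 3 have an adjusted p of 0.811 or more. Among the 6 extra axial and extra cranial tumors of this label, the r of AMOT and PTPN14 was 0.159.

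**Figure D4:**
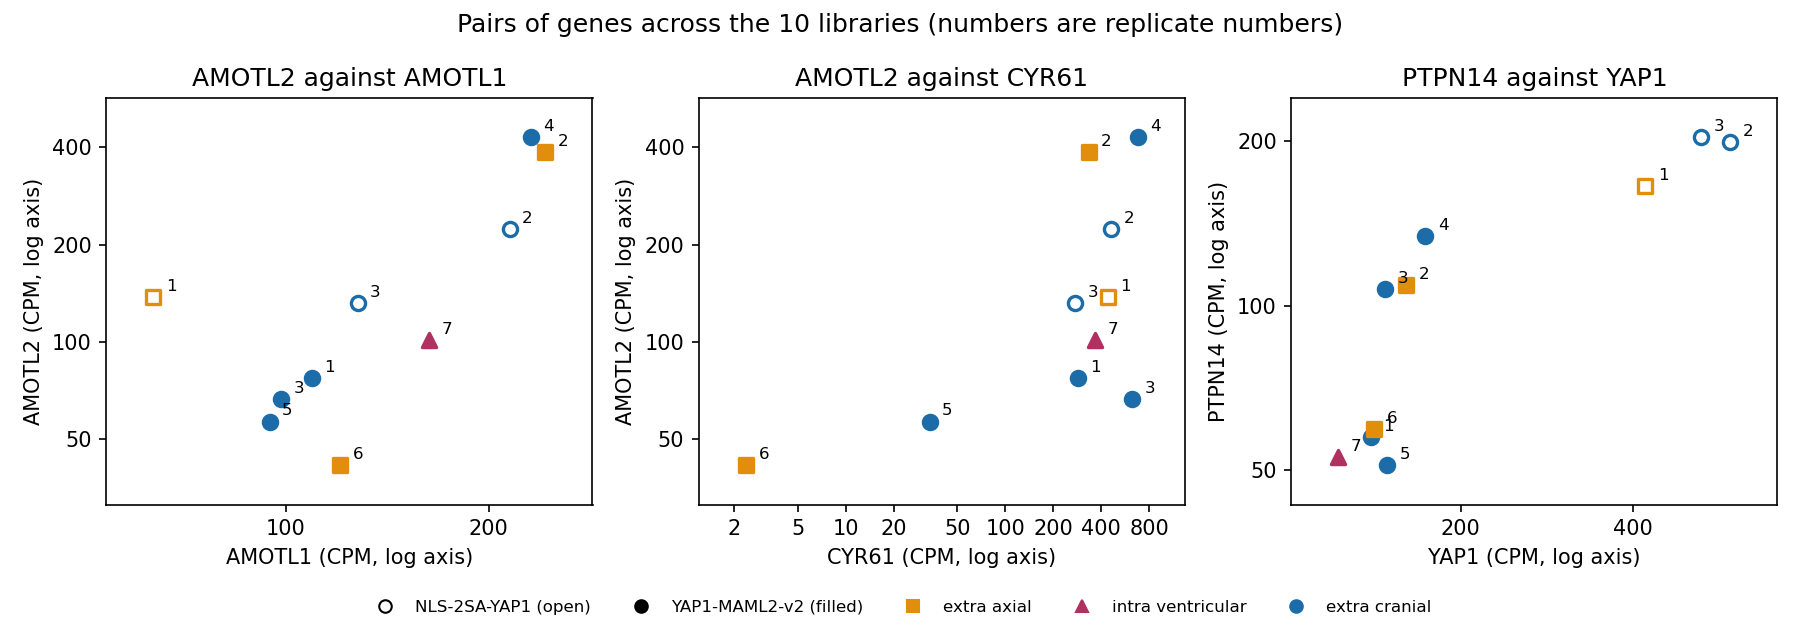
AMOTL2 against AMOTL1, AMOTL2 against CYR61 and PTPN14 against YAP1, all in CPM on log axes, with open symbols for NLS-2SA-YAP1 and filled symbols for YAP1-MAML2-v2, shapes and colors for regions and replicate numbers beside the points. YAP1-MAML2-v2 replicates 2 and 4 lie at the top for AMOTL2 (387 and 429 CPM), and the 3 NLS-2SA-YAP1 tumors sit at the upper right for PTPN14 and YAP1.

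Over all 10 libraries, the genes most like each member were ranked by Pearson's r of log2 CPM among 11691 genes above 1 in every library. These are descriptions, and the 10 points share their construct label and scaling. AMOT was most like COBLL1 (r = 0.958), SIK2 (0.938) and LMO7 (0.933). COBLL1 had 67.4 to 98.9 CPM in NLS-2SA-YAP1, against 17.7 to 96.1 CPM in YAP1-MAML2-v2. PTPN14 was most like DZIP1L (0.970), JPH2 (0.949) and PDZD11 (0.935), with YAP1 at rank 50 (0.859). DZIP1L had 16.1 to 19.1 CPM in NLS-2SA-YAP1, against 6.50 to 14.7 CPM in YAP1-MAML2-v2, without overlap. It was picked for its likeness to PTPN14, whose groups do not overlap either, so nothing is read from this gap.

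AMOTL1 was most like ZBTB14 (r = 0.927), APLN (0.910) and GNAQ (0.892). APLN encodes apelin, a peptide ligand of vascular cells, and had 0.120 to 11.8 CPM in NLS-2SA-YAP1, against 0.590 to 18.8 CPM in YAP1-MAML2-v2. AMOTL2 was most like SC5D (0.939), MSMO1 (0.935) and IPO9 (0.929), of which SC5D and MSMO1 encode enzymes of cholesterol synthesis. MSMO1 had 48.3 to 82.9 CPM in NLS-2SA-YAP1, against 15.3 to 239 CPM in YAP1-MAML2-v2. Among the members, AMOTL1 and AMOTL2 were the closest pair at r = 0.697, and AMOT and AMOTL1 the least alike at -0.083.

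The wider pathway was read from 6 lists with 83 distinct tested genes. Between labels edgeR called 0 of the 83, against 0.0146% of all genes (2 of 13707, CHRDL1 and IGF2BP1, named after their values were seen). At an unadjusted p of 0.05 there were 21 of the 83, where 13.1% of all genes fell under that p. The lists were chosen with earlier results of these data known, so their counts, calls and p-values between labels are descriptions and no independent evidence. DESeq2 called 4 higher in NLS-2SA-YAP1 (among them AJUBA, YAP1 and TEAD4) and 7 lower (TNKS2, LATS2, TAOK1, TEAD2, DLC1, TGFB2 and THBS1). TEAD4, LATS2 and THBS1 are named here after their values were seen. Of all genes, DESeq2 called 1.63% higher and 3.36% lower. limma-voom with sample quality weights called AJUBA and YAP1, both higher, and of all genes 0.482% higher and 0.212% lower. Between regions edgeR, DESeq2 and limma-voom called 0 of the 83, and 5 were under an unadjusted p of 0.05 in edgeR, against 3.01% of all genes. These 5 were MAGI1, INADL, BIRC5, CTGF and EDN1, with BIRC5 named after its values were seen.

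Among 16 partners and turnover factors of the angiomotins, 6 had a positive and 10 a negative log2 fold change between labels, with a median of -0.22 beside -0.032 for all genes. TNKS2, a tankyrase that marks angiomotins for degradation, had 39.6 to 100 CPM in NLS-2SA-YAP1, against 101 to 226 CPM in YAP1-MAML2-v2. Its fold on the log2 scale was -1.31 (SE 0.42, edgeR adjusted p = 0.268), and DESeq2 gave an adjusted p of 0.0358. INADL, also named PATJ, a polarity protein that binds angiomotins, had 329 to 422 CPM in NLS-2SA-YAP1, against 54.6 to 414 CPM in YAP1-MAML2-v2, with 1.48 (SE 0.49, edgeR adjusted p = 0.275). Between regions the median was -0.016, beside -0.0079 for all genes. INADL had 1.15 (SE 0.49) and MAGI1, a junctional scaffold, 0.85 (SE 0.32) on the log2 scale for extra axial minus extra cranial, both at an edgeR adjusted p of 1.

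Of 6 relatives and partners of PTPN14, 3 had a positive and 3 a negative log2 fold change between labels, with a median of -0.11. WWC1, the scaffold KIBRA that binds PTPN14 and activates LATS kinases, had 40.1 to 56.2 CPM in NLS-2SA-YAP1, against 1.39 to 54.4 CPM in YAP1-MAML2-v2. Its fold on the log2 scale was 1.92 (SE 0.79, edgeR adjusted p = 0.353). PTPN21, the phosphatase closest to PTPN14, had 106 ± 32.8 CPM in NLS-2SA-YAP1 and 50.4 ± 30.3 CPM in YAP1-MAML2-v2 (SD, n = 3 and 7), with 0.95 (SE 0.49, edgeR adjusted p = 0.440). Between regions the median was 0.11, and the smallest unadjusted p belonged to LIX1L, at -0.41 (SE 0.42), and FRMD6, at -0.58 (SE 0.70).

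Among 14 other junctional and cytoplasmic YAP1 binders, 5 were positive and 9 negative between labels, with a median of -0.24. PARD3, a polarity protein, was at 62.0 to 134 CPM in NLS-2SA-YAP1, against 127 to 255 CPM in YAP1-MAML2-v2, with -1.06 (SE 0.35, edgeR adjusted p = 0.276). Between regions 4 were positive and 10 negative, with a median of -0.062. CTNNA1 had -0.44 (SE 0.39) and CSNK1D -0.36 (SE 0.34) there, both at an edgeR adjusted p of 1.

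The 18 Hippo kinases and scaffolds split into 8 positive and 10 negative between labels, with a median of -0.086. AJUBA, a LIM protein that inhibits LATS kinases, had 59.3 to 72.8 CPM in NLS-2SA-YAP1, against 8.20 to 33.6 CPM in YAP1-MAML2-v2, with 1.95 (SE 0.44, edgeR adjusted p = 0.161, DESeq2 adjusted p = 0.00795). TAOK1, an upstream kinase, was at 51.1 to 128 CPM in NLS-2SA-YAP1, against 140 to 320 CPM in YAP1-MAML2-v2, with -1.38 (SE 0.32, edgeR adjusted p = 0.165). Between regions TAOK1 had -0.66 (SE 0.31) and MOB1A -0.71 (SE 0.47), and the list's median was -0.0018.

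The list of YAP1, WWTR1, TEAD and VGLL factors (8 genes) was 4 positive and 4 negative between labels, with a median of 0.25. TEAD2 had 8.69 to 11.5 CPM in NLS-2SA-YAP1, against 10.3 to 55.3 CPM in YAP1-MAML2-v2, with -1.70 (SE 0.38, edgeR adjusted p = 0.161). Between regions TEAD2 had 0.28 (SE 0.35) and TEAD1 -0.39 (SE 0.51). WWTR1, the paralog of YAP1 known as TAZ, which angiomotins also bind, averaged 294 ± 160 CPM in NLS-2SA-YAP1 and 195 ± 94.3 CPM in YAP1-MAML2-v2 (SD, n = 3 and 7).

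The other 23 YAP1-TEAD targets were 9 positive and 14 negative between labels, with a median of -0.34. DLC1 had 1.72 to 7.35 CPM in NLS-2SA-YAP1, against 13.4 to 110 CPM in YAP1-MAML2-v2, with -3.19 (SE 0.84, edgeR adjusted p = 0.211). PTPN14 and AMOTL2, targets that the list leaves out, had 1.13 and -0.077. Between regions 7 were positive and 16 negative, with a median of -0.39, the list median farthest from 0 among the 6 in that comparison. CTGF had -2.77 (SE 1.06), with 28.7 to 835 CPM in extra axial tumors, against 667 to 5090 CPM in extra cranial tumors, and EDN1 had -2.04 (SE 0.86). Both have an edgeR adjusted p of 1.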

How the data were processed

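RNA of 10 tumors was measured as stranded mRNA libraries, per the labels' protocols. The authors deposited 1 table per library with 16895 human-style symbols and whole numbers. HTSeq and mm10 are named in the submitters' processing notes. The sources used here name no aligner and no strand setting. As deposited, the authors' values are taken to be estimated counts, not raw counts, because among 10505 genes with a median over 200 there were 251 values at 0, 219 at 1 and 21 at 2. A plain count test had been planned and was run on them unrounded, since they are whole.

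Genes were kept with filterByExpr at a minimum count of 10, and libraries were scaled by TMM. Under R 4.3.3, the quasi-likelihood test of edgeR 4.0.16 used construct and region as terms over all 10 libraries, with Benjamini-Hochberg adjustment over 13707 genes and a threshold of 0.05. DESeq2 1.42.0 and limma 3.58.1 were alternatives, with other scalings, no filter and each library left out. Log2 CPM used a prior count of 2. TPM used GENCODE M21 lengths of the 15475 genes matched by symbol ignoring case. The steps were tested on simulated data. The members and the lists were chosen with earlier results of these data known. Named genes were the members, YAP1, WWTR1, CTGF and CYR61, the 3 genes most like each member, list genes past the threshold, and per list the 2 with the smallest p in each comparison. One gene that this rule names is not reported here.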

Additional observations from a re-analysis of the deposited data

Results flagged for a closer look

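Among 22 sets of values for the members, their shares and their ratios to YAP1, 3 held a library whose gap to the nearest other one was large for the group's range. Chance gives about 1 such library in 20 sets only where sets are independent and values normally distributed. The sets here share libraries and values, so that rate does not hold for them. AMOT stood at 53.0 CPM in YAP1-MAML2-v2 replicate 7, the intra ventricular tumor, with 21.9 CPM as the next value among the 7 tumors of that label. The summed angiomotins per YAP1, both in TPM, came to 4.92 in YAP1-MAML2-v2 replicate 4, with 1.63 as the next value among the 6 extra cranial libraries. With PTPN14 added to the sum, that library had 5.45 and the next one 1.94. AMOTL2 carried most of this sum, at 74.0% of the angiomotin TPM in replicate 4. Extra cranial libraries include both constructs, and among the 7 YAP1-MAML2-v2 tumors replicate 4 has a close neighbour in replicate 2, at 5.03.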

How the results depend on the processing

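The higher AMOT and PTPN14 levels in NLS-2SA-YAP1 kept their direction in all 20 alternatives (log2 1.48 to 2.25 for AMOT and 1.00 to 1.46 for PTPN14). AMOTL1 (-0.63 to 0.36) and AMOTL2 (-0.41 to 0.89) did not. No member passed the threshold between regions under any alternative. Genes called between constructs were 2 in edgeR, 685 with DESeq2, 95 with limma-voom, and 4 each with limma-trend, with no filter and with extra cranial libraries only. Between regions they were 0 in edgeR and 31 with DESeq2, and for the interaction 1 and 204. Leaving out 1 library gave 0 to 2, 0 to 1 and 0 to 3 calls in these comparisons. The construct calls fell to 0 without YAP1-MAML2-v2 replicate 2, 4 or 6 or NLS-2SA-YAP1 replicate 2 or 3. Regional folds turned sign with library totals (AMOTL1 0.044, PTPN14 0.013), limma-voom (AMOTL2 -0.15) and YAP1-MAML2-v2 libraries only (AMOT 0.0021, AMOTL1 0.45). With 1 library left out they ran from -0.36 to 0.028 (AMOT), -0.68 to 0.43 (AMOTL1), -1.12 to 1.06 (AMOTL2) and -0.43 to 0.073 (PTPN14). AMOTL2 was at -1.12 without YAP1-MAML2-v2 replicate 2, and AMOTL1 at 0.43 without NLS-2SA-YAP1 replicate 1. The interaction ran from -2.03 to 1.62 (AMOTL2) and -0.57 to 0.35 (PTPN14), positive only without YAP1-MAML2-v2 replicate 2, and it could not be fitted without NLS-2SA-YAP1 replicate 1. The r of AMOT and PTPN14 was 0.159 without replicate 7. Causes were not tested.

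Replicate numbers 1 to 3 were not taken as pairs. Deviations of same-numbered libraries correlated at 0.167, 0.337 and -0.072. NLS-2SA-YAP1 replicates 1 and 2 were closest to their own number and replicate 3 was not. So few libraries cannot settle whether the numbers pair the samples. With the replicate block, 2 genes were called between constructs and 6 between regions, and PTPN14 had a regional fold of 0.33. The same 6 libraries with no block, an alternative chosen after seeing the data like those of the interaction without a library, gave 2 and 0 calls, with AMOTL1 at 0.10 and PTPN14 at 0.069. Depth is unknown for these values, so it sets no limit that can be stated.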
